A study of Mus musculus with 20 samples.

Results

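The liver X receptor (LXR) targets and sterol efflux genes described here are 9 genes, *Nr1h3*, *Abca1*, *Abcg1*, *Abcg5*, *Abcg8*, *Mylip*, *Soat2*, *Pltp* and *Scarb1*, taken by symbol from a table of 50559 genes. All 9 were found in the table and all 9 passed the filter on low counts in every comparison. RNA was sequenced from 20 livers of mice carrying *Cideb* fl/fl, the floxed allele of the lipid droplet gene *Cideb*, on the C57BL/6 background. WT livers came from mice given AAV-TBG-GFP and KO livers from mice given AAV-TBG-Cre, with 5 livers for each vector on each of 2 diets. The TBG promoter is active in hepatocytes, so the other cells of a KO liver kept *Cideb*, and every mouse, the controls included, carried the floxed allele and an AAV. Western diet (WD) was a solid food that the study's methods call high in sugar, fat and cholesterol, given with fructose and glucose in the water. CDA-HFD is a choline-deficient, amino acid-defined, high-fat diet, also low in methionine. The study's text gives no amount of cholesterol for either diet, and the cholesterol content of CDA-HFD is not given in the sources used here. The labels give 3 months for both diets, whereas the study's text describes a longer course for WD than for CDA-HFD. Diet therefore cannot be told apart from feeding time, feed lot or sequencing session.

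LXRs are nuclear receptors that bind oxysterols, which are oxidized products of cholesterol, and act on DNA as heterodimers with retinoid X receptors (RXRs). In liver and macrophages they are known to raise genes that move cholesterol out of cells and into bile, and genes of fatty acid synthesis. When sterol in the endoplasmic reticulum is low, SREBP2, a transcription factor of the opposite arm, is processed and raises the genes of cholesterol synthesis. *Nr1h3* encodes the receptor LXRα. *Abca1* and *Abcg1* encode transporters that pass cholesterol to lipid-poor apolipoprotein A-I and to HDL. *Abcg5* and *Abcg8* encode the subunits of a heterodimer that secretes sterols across the canalicular membrane into bile. *Mylip* encodes IDOL, a ubiquitin ligase. *Soat2* encodes an enzyme that esterifies cholesterol, *Pltp* a plasma phospholipid transfer protein, and *Scarb1* the HDL receptor SR-BI. *Soat2* and *Scarb1* belong to the same sterol routes and are less often counted among LXR targets.

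*Abcg5* and *Abcg8* lie head to head on chromosome 17 (GRCm38). *Abcg5* (ENSMUSG00000040505.13) runs on the minus strand from 84658234 to 84683011, and *Abcg8* (ENSMUSG00000024254.15) runs on the plus strand from 84676302 to 84700333. In RefSeq the nearer starts of the pair leave 109 bases between them, chr17:84683012-84683120, which is shown because both genes start from it and their levels were alike across the 20 livers. Plus strand, capitals mark the letters TTATC, which are GATAA on the minus strand:

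*Abcg5*-*Abcg8*: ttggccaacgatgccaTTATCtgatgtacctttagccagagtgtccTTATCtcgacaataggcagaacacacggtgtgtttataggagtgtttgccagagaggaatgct

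The letters GATAA, at which GATA factors are known to bind, occurred 2 times in this stretch, and 22.6% of the 32851 windows of 250 bases before a RefSeq start held GATAA on either strand. *Abca1* (ENSMUSG00000015243.4) spans 53030787 to 53159895 of chromosome 4, minus strand. Its upstream window, chr4:53159896-53160145 on the minus strand, is shown because *Abca1* is the best known LXR target of the list. Capitals mark the closest match, on the opposite strand, to a direct repeat of AGGTCA with 4 bases between the copies, the arrangement that LXR with RXR is known to bind:

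*Abca1*: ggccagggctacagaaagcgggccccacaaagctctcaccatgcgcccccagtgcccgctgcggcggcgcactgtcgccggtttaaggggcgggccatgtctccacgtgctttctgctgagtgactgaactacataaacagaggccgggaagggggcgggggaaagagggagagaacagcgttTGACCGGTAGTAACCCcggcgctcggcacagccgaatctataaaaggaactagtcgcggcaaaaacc

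This match had 3 mismatches over the 12 bases of the copies and lay 52 to 67 bases before the start. At up to 3 mismatches 18.5% of all windows held such a repeat, and at up to 2 mismatches 2.57% did. RefSeq windows were matched for 6 of the 9 genes, 8 windows in all, with none for *Abcg1*, *Soat2* and *Scarb1*. No other window of the list came within 3 mismatches, and an exact AGGTCA on either strand, found in 4607 of the 32851 windows, occurred in none of the 8. A match of letters is a description and not a bound site.

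Levels are given as CPM, read counts scaled to a common library total, after TMM scaling, a factor per library that evens out differences in composition, over all 20 livers. On WD WT livers had 6.06 ± 1.12 CPM of *Cideb* itself (SD, n = 5) and KO livers 0.155 ± 0.165 CPM. On CDA-HFD the levels were 3.05 ± 0.653 and 0.163 ± 0.154 CPM, and WT and KO did not overlap on either diet. Of its annotated exonic bases 76.3% are shared with *Nop9* on the opposite strand. Reads counted on genes ranged from 11697049 to 16827147 per liver, and all 8 hepatocyte markers were detected in every group. KO liver 5 on CDA-HFD stood apart. On the first principal component of the CDA-HFD livers, which held 59.9% of the variance, it was at -41.66, whereas the other KO livers ranged from 43.34 to 66.95 and the WT livers from -64.53 to -7.76. Its *Cideb* reads were as low as those of the other KO livers, and values of the 9 genes that it moves across the threshold are given with and without it.

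Levels of different genes were compared per kilobase of annotated exon. In WT livers on WD *Abcg5* was at 80.8 ± 27.7, *Abca1* at 74.2 ± 5.55 and *Abcg8* at 68.6 ± 24.9 CPM per kb, and the ranges of these 3 genes overlapped. *Nr1h3* at 38.5 ± 2.70 and *Pltp* at 33.1 ± 8.96 CPM per kb followed, with overlapping ranges. *Scarb1* at 22.9 ± 2.39 and *Soat2* at 21.7 ± 2.17 CPM per kb overlapped too. *Mylip* at 8.13 ± 0.958 and *Abcg1* at 5.36 ± 1.93 CPM per kb were the lowest of the list. In WT livers on CDA-HFD the order was another, with the biliary pair at 14.9 ± 4.19 (*Abcg5*) and 14.8 ± 3.26 (*Abcg8*) CPM per kb. *Abca1* then stood highest at 40.2 ± 2.94, above *Nr1h3* at 29.5 ± 4.28 CPM per kb with no overlap, and *Scarb1* followed at 21.0 ± 2.78 CPM per kb.

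**Figure D1:**
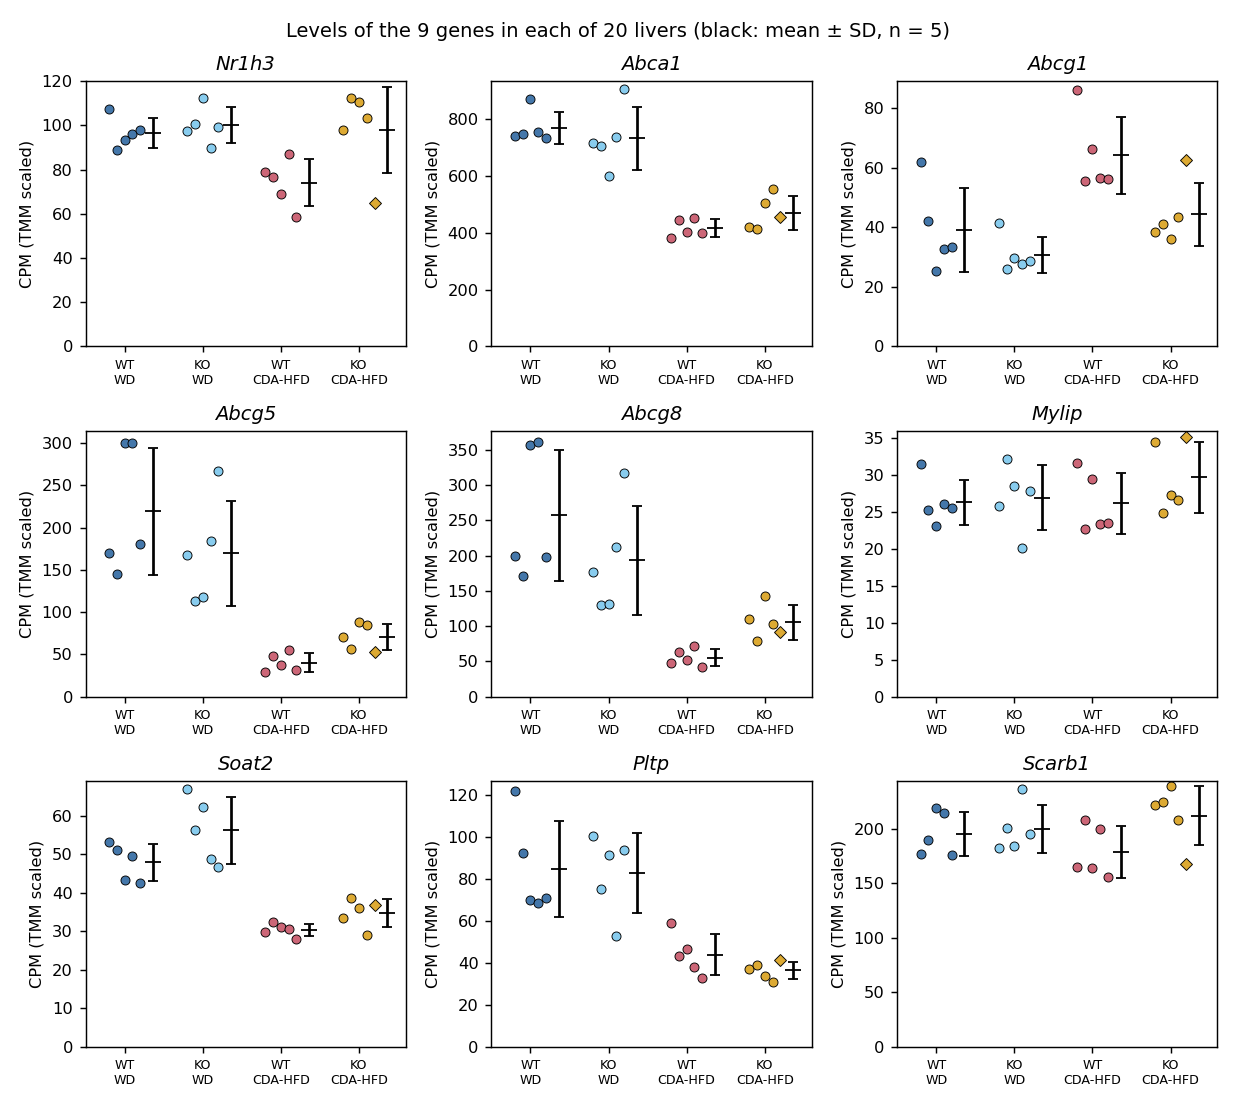
Level of each of the 9 genes in every liver, as CPM after TMM scaling (vertical axes, linear from 0), by vector and diet (horizontal axes). Points are single livers, the diamond is KO liver 5 on CDA-HFD, and black bars are mean ± SD of 5 livers. *Abcg5*, *Abcg8*, *Abca1*, *Soat2*, *Pltp* and *Nr1h3* sit lower on CDA-HFD than on WD in WT livers with no overlap. *Abcg1* sits higher there, and *Mylip* and *Scarb1* stay within overlapping ranges.

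The first question was how the list differed between the diets in livers that kept *Cideb*. In WT livers 6 of the 9 genes were lower on CDA-HFD than on WD, *Abcg5*, *Abcg8*, *Abca1*, *Pltp*, *Soat2* and *Nr1h3*. *Abcg1* was higher, and *Mylip* and *Scarb1* did not pass (edgeR's quasi-likelihood test with Benjamini-Hochberg adjustment over all genes tested, threshold 0.05). The largest falls were those of *Abcg5* to 0.183 and *Abcg8* to 0.214 of the level on WD. Over all 16726 genes tested 51.1% passed, 25.9% higher and 25.2% lower, against 1 and 6 of 9 here. The groups did not overlap for 6 of the 9 genes, all lower on CDA-HFD, and for 37.1% of all genes. The median log2 fold change of the 9 genes was -0.67, beside -0.00316 for all genes. Hepatocyte markers were lower too, 5 of 8 in WT livers with a median of -0.70 (2 of 8 with scaling by library size alone), and their sum ranged from 53320 to 93070 CPM on WD and from 28800 to 64330 CPM on CDA-HFD. The sum was mostly *Alb*, albumin, which averaged 56946 CPM in WT livers on WD and 37144 CPM on CDA-HFD. In KO livers none of the 8 passed with diet. The part of hepatocyte content in the members' values was not tested. When libraries were scaled by their size alone the median of all genes stood at 0.421 and 85.3% of the genes that passed were higher on CDA-HFD, in place of 50.7%. The number of genes that passed was then 10690 in place of 8542. Under that scaling *Abca1*, *Abcg5* and *Abcg8* were still lower, *Abcg1* still higher, *Nr1h3* turned to 0.02, and *Mylip* (0.41) and *Scarb1* (0.29) passed as higher, so the falls are relative to the whole set of genes.

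In KO livers 5 of the 9 genes were lower on CDA-HFD, *Pltp*, *Abcg5*, *Soat2*, *Abca1* and *Abcg8*, and none was higher, where 17.0% of 16387 genes tested passed, 9.19% higher and 7.85% lower. The groups of 5 did not overlap for 4 of the 9, against 15.2% of all genes. The median log2 fold change was -0.65, beside 0.00326 for all genes. Without KO liver 5 *Pltp*, *Abcg5*, *Soat2*, *Abca1* and *Abcg8* were lower and none higher, beside 8.37% lower and 9.03% higher of 16555 genes. Scaling by library size alone put the median of all genes at 0.251, turned the share of higher calls from 53.9% to 85.9%, and left 3 of the 9 lower (*Abca1*, *Abcg5* and *Pltp*) and 2 higher (*Abcg1* and *Scarb1*). The number of genes that passed was then 3924 in place of 2792. The diet comparisons in WT and in KO livers use the same livers as the KO comparisons below, so the sets of values are not independent of each other.

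**Figure D2:**
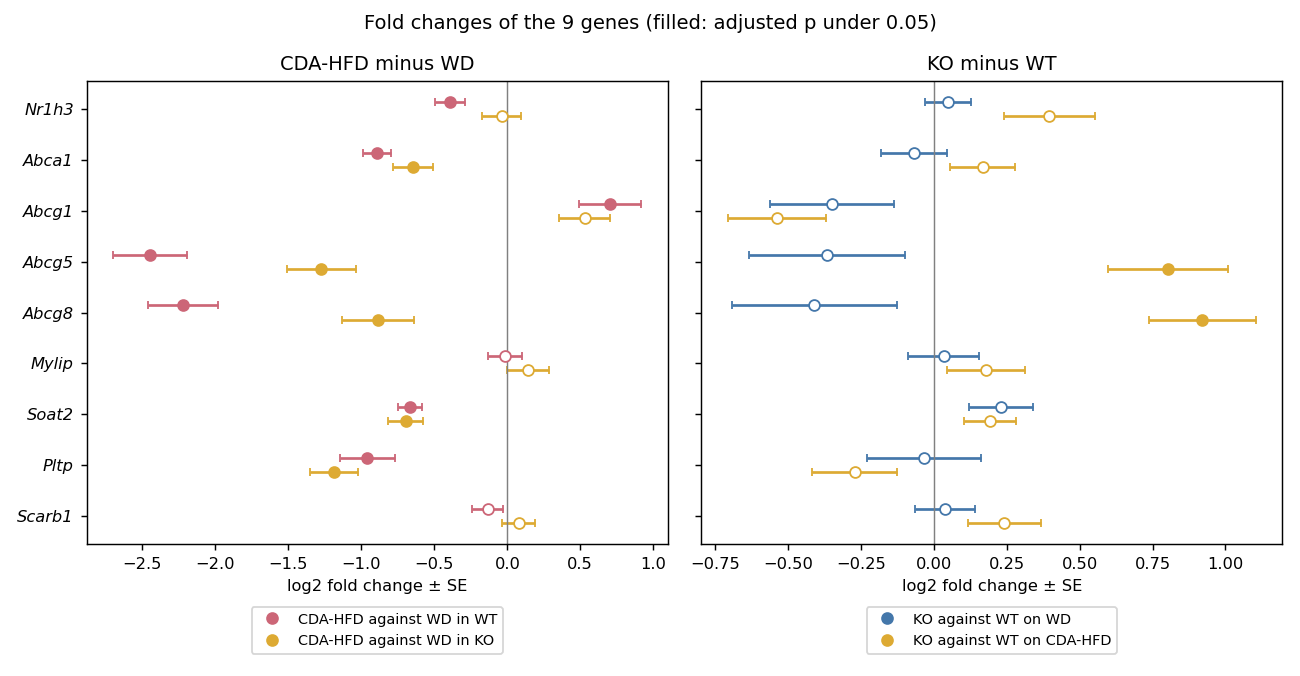
Log2 fold changes ± SE from edgeR (horizontal axes) for the 9 genes (vertical axis), at left CDA-HFD minus WD and at right KO minus WT. Filled points had an adjusted p under 0.05. *Abcg5* and *Abcg8* moved furthest with diet, to -2.45 and -2.22 in WT livers, and were the pair that passed for KO on CDA-HFD. With scaling by library size alone the diet values of *Nr1h3* in both kinds of liver and of *Mylip* and *Scarb1* in WT livers, and the KO values of *Abca1* and *Mylip* on CDA-HFD, change sign.

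*Nr1h3* (ENSMUSG00000002108.10; chromosome 2, 91184061 to 91202834, minus strand) is the receptor of the list. On WD its 5 WT livers were at 107, 89.1, 93.6, 95.9 and 97.9 CPM and its KO livers at 97.6, 101, 113, 90.0 and 99.1 CPM. On CDA-HFD the WT livers were at 79.1, 76.6, 68.9, 87.1 and 58.8 CPM, all below every WT liver on WD. The KO livers on CDA-HFD were at 98.0, 112, 111, 103 and 64.7 CPM, where the last, KO liver 5, lay among the WT livers and the other 4 lay in the range of the livers on WD. In WT livers *Nr1h3* was lower on CDA-HFD by a log2 fold change of -0.39 (SE 0.103, edgeR adjusted p = 0.00728), a fall that turned to 0.02 with scaling by library size alone. Between KO livers of the 2 diets the difference was -0.04 (SE 0.135, edgeR adjusted p = 0.869). KO minus WT was 0.05 on WD (edgeR adjusted p = 0.865) and 0.40 on CDA-HFD (SE 0.157, edgeR adjusted p = 0.100), and the latter was 0.52 without KO liver 5 (SE 0.111, edgeR adjusted p = 0.00395). With all 20 livers in one fit, KO liver 5 included, it passed as well (0.40, edgeR adjusted p = 0.0277).

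The sterol ligands of the receptor are made by several enzymes, given here as a list of 8, of which 7 were tested in WT livers. On CDA-HFD 4 of the 7 were lower and 1 was higher in WT livers, where 25.2% and 25.9% of all genes were. *Cyp27a1*, the sterol 27-hydroxylase of mitochondria, fell from 396 ± 73.4 to 169 ± 32.7 CPM (SD, n = 5; log2 fold change -1.24, edgeR adjusted p = 9.52e-05). *Cyp46a1*, the cholesterol 24-hydroxylase, fell from 6.12 ± 1.64 to 1.18 ± 0.343 CPM in WT livers and was lower in KO livers as well (log2 fold change -2.36, edgeR adjusted p = 0.000163). *Hsd3b7*, which acts on 7α-hydroxylated sterols, had a log2 fold change of -0.75 in WT livers (edgeR adjusted p = 0.000989). In KO against WT livers on CDA-HFD 1 of the 7 rose and 1 fell, where 8.19% and 7.29% of all genes did. Without KO liver 5 the counts of the list were 5 and 1, where 19.6% of all genes were higher and 21.8% lower. *Cyp27a1* was higher at 304 ± 45.5 CPM in KO livers (log2 fold change 0.84, edgeR adjusted p = 0.0124). *Ch25h*, the cholesterol 25-hydroxylase, was low everywhere and lower in KO livers at 0.155 ± 0.0861 CPM, against 1.00 ± 0.257 CPM in WT (log2 fold change -2.62, edgeR adjusted p = 0.00519). In KO livers across the diets 1 of 6 rose, *Cyp39a1*, an oxysterol 7α-hydroxylase, with a log2 fold change of 1.57 (edgeR adjusted p = 0.0158), and 1 fell. Of all genes 9.19% rose and 7.85% fell there.

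The other LXR gene, *Nr1h2*, stayed between 33.1 ± 1.49 CPM (WT on WD) and 35.6 ± 3.73 CPM (KO on CDA-HFD), and passed in no comparison. It was named after its values were seen. Of the 10 receptor partners and corepressors 4 were lower and 1 higher on CDA-HFD in WT livers, where 51.1% of all genes passed. In KO livers 1 was higher, where 9.19% of all genes were. *Rxra*, the main RXR of hepatocytes, fell from 611 ± 51.8 to 419 ± 81.0 CPM in WT livers (log2 fold change -0.55, edgeR adjusted p = 0.00503), a call lost with scaling by library size alone (-0.13). Under that scaling 5 of the 10 were higher and 1 lower, where 10690 of 16726 genes passed, 85.3% of them higher. *Nr0b2*, the corepressor SHP, had a log2 fold change of -1.05 (edgeR adjusted p = 0.0045) with TMM scaling in WT livers. None of the 10 passed between KO and WT on either diet, and 4 were higher on CDA-HFD without KO liver 5, where 19.6% of all genes were.

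*Abcg5* and *Abcg8*, the canalicular sterol transporter, moved further with diet than the other 7 genes in WT livers. *Abcg5* was at 169.9, 145, 300.4, 300.1 and 180.1 CPM in the 5 WT livers on WD and at 167, 113, 118, 184 and 266 CPM in the KO livers. On CDA-HFD it was at 28.7, 48.3, 37.0, 55.7 and 31.9 CPM in WT livers, so the highest of these was far below the lowest on WD. The KO livers on CDA-HFD were at 70.8, 56.8, 87.8, 84.4 and 53.0 CPM, and 1 of them, KO liver 5, lay below the highest WT liver. CDA-HFD minus WD was -2.45 on the log2 scale in WT livers (SE 0.253, edgeR adjusted p = 2.98e-05) and -1.27 in KO livers (SE 0.235, edgeR adjusted p = 0.00537). KO minus WT was -0.37 on WD (SE 0.268, edgeR adjusted p = 0.649), with overlapping groups. On CDA-HFD KO livers were 1.75-fold higher (log2 0.80, SE 0.207, edgeR adjusted p = 0.0287; exact two-sided permutation test p = 0.0159). This call was lost in 6 of the 10 fits that left out 1 liver, with edgeR adjusted p from 0.00446 to 0.0781, the lowest without KO liver 5.

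*Abcg8* followed the same pattern. WT livers on WD were at 199, 171, 357, 360.5 and 198 CPM, and KO livers on WD at 177, 129, 131, 212 and 317 CPM. Livers 3 and 4 of WT and liver 5 of KO stood above the rest of their groups for both genes of the pair. On CDA-HFD *Abcg8* was at 48.2, 63.0, 51.6, 72.3 and 41.6 CPM in WT livers and at 110.2, 78.2, 143, 102 and 92.1 CPM in KO livers. Every KO liver on CDA-HFD, liver 5 included, lay above every WT liver. KO livers were 1.89-fold higher (log2 0.92, SE 0.184, edgeR adjusted p = 0.0147; exact two-sided permutation test p = 0.00794, the smallest that 5 against 5 livers allow). The call held in all 10 fits that left out 1 liver (edgeR adjusted p 0.00232 to 0.0448). KO minus WT on WD was -0.41 (SE 0.284, edgeR adjusted p = 0.633). CDA-HFD minus WD was -2.22 in WT livers (SE 0.241, edgeR adjusted p = 3.71e-05) and -0.89 in KO livers (SE 0.246, edgeR adjusted p = 0.032), and the latter lost its call in 5 of 10 fits that left out 1 liver (edgeR adjusted p 0.0233 to 0.0715, with -0.64 without KO liver 5 on WD) and with scaling by library size alone.

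Because the pair works as a heterodimer, reads on *Abcg5* per read on *Abcg8* were also compared, a ratio that does not depend on the scaling of a library. It was 0.853, 0.847, 0.842, 0.832 and 0.909 in WT livers on WD and 0.944, 0.876, 0.899, 0.869 and 0.841 in the KO livers of that diet. On CDA-HFD it was 0.594, 0.767, 0.716, 0.770 and 0.767 in WT livers and 0.643, 0.727, 0.614, 0.825 and 0.576 in KO livers. All 10 livers on CDA-HFD lay below all 10 on WD. The diets differed in WT and in KO livers (exact two-sided permutation test p = 0.00794 in each, 0.0159 adjusted over the 4 tests), whereas KO and WT did not pass on WD (permutation p = 0.23) or on CDA-HFD (permutation p = 0.437). The ratio was tested after the values of both genes were known. Over 20 livers the log2 CPM of the pair had r = 0.986, and r = 0.951 after the group means were removed, with libraries and depth shared by both genes. In the annotation 82 exonic bases of the pair overlap on opposite strands, 3.02% of *Abcg5* and 2.19% of *Abcg8*, and whether reads were counted by strand is not given in the sources used here.

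**Figure D3:**
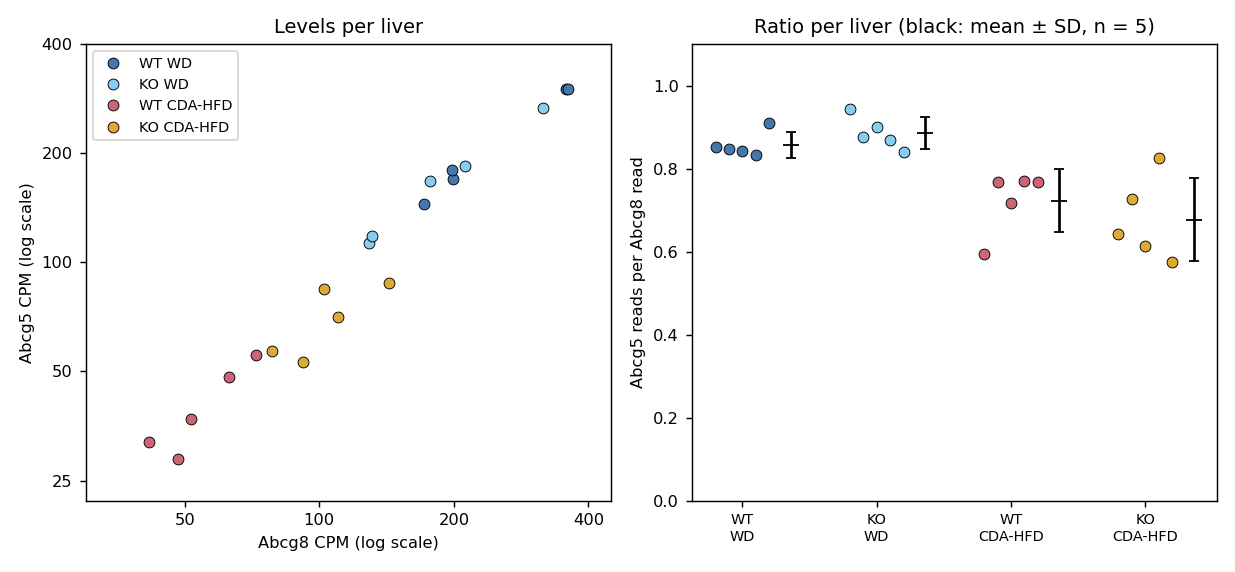
At left the CPM of *Abcg5* against that of *Abcg8* in each of 20 livers (both axes log), at right reads on *Abcg5* per read on *Abcg8* by group, as single livers with mean ± SD of 5. The pair lies along a line with r = 0.986 on log2 CPM, and the ratio is at or above 0.832 in every liver on WD and at or below 0.825 in every liver on CDA-HFD.

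*Abca1*, the transporter that loads apolipoprotein A-I, was lower on CDA-HFD in both kinds of liver. WT livers on WD were at 739.9, 747, 871, 753 and 734 CPM, where liver 3 stood above the other 4. KO livers on WD were at 717, 704, 600.0, 736 and 907 CPM. On CDA-HFD WT livers were at 381, 446, 404, 451 and 399.8 CPM and KO livers at 419.6, 413, 506, 555 and 455 CPM. No liver on CDA-HFD reached the lowest liver on WD. The log2 fold change with diet was -0.89 in WT livers (SE 0.0946, edgeR adjusted p = 3.34e-05) and -0.65 in KO livers (SE 0.135, edgeR adjusted p = 0.01). KO minus WT was -0.07 on WD (SE 0.113, edgeR adjusted p = 0.874) and 0.17 on CDA-HFD (SE 0.112, edgeR adjusted p = 0.301), and the latter was -0.03 with scaling by library size alone.

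*Abcg1* (ENSMUSG00000024030.7; chromosome 17, 31057675 to 31117988, plus strand), which passes cholesterol to HDL and is prominent in macrophages, went the other way. WT livers on WD were at 61.9, 42.0, 25.3, 32.8 and 33.6 CPM and KO livers on WD at 41.5, 26.1, 29.7, 27.8 and 28.6 CPM, where liver 1 of each group was the highest. On CDA-HFD WT livers were at 86.1, 55.5, 66.4, 56.7 and 56.4 CPM. The KO livers on CDA-HFD were at 38.3, 41.0, 36.2, 43.4 and 62.8 CPM, with only KO liver 5 inside the WT range. CDA-HFD minus WD was 0.71 on the log2 scale in WT livers (SE 0.214, edgeR adjusted p = 0.0162), with 1 WT liver on WD inside the CDA-HFD range. In KO livers it was 0.53 (SE 0.173, edgeR adjusted p = 0.0556), and 0.36 without KO liver 5 on CDA-HFD (edgeR adjusted p = 0.0792). KO minus WT on CDA-HFD was -0.54 (SE 0.168, edgeR adjusted p = 0.051), and -0.69 without KO liver 5 (SE 0.132, edgeR adjusted p = 0.00208). On WD it was -0.35 (SE 0.213, edgeR adjusted p = 0.585).

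Macrophage markers moved with *Abcg1*. The summed level of 14 macrophage markers ranged on WD from 482 to 1533 CPM in WT livers and from 427 to 769 CPM in KO livers. It ranged from 2587 to 5410 CPM in WT livers on CDA-HFD, and from 828 to 1019 CPM in 4 KO livers there, with KO liver 5 at 3435 CPM. Of the 14 markers 13 were higher on CDA-HFD in WT livers and 8 in KO livers, where 25.9% and 9.19% of all genes were. In KO against WT livers on CDA-HFD 9 were lower, where 7.29% of all genes were. That count was 14 without KO liver 5 (21.8% of all genes) and 5 with scaling by library size alone. Under that scaling 1709 of 17204 genes passed, 30.3% of them higher. None of the 14 was at 0 in every liver of any group. Over 20 livers the log2 level of *Abcg1* and that of the sum had r = 0.940, and r = 0.865 after the group means were removed, with libraries and depth shared. The 3 genes whose log2 CPM was most like that of *Abcg1*, of 11840 searched, were *Plekho2* (r = 0.966), *Ikzf1* (r = 0.965) and *Casp1* (r = 0.962). For the other 8 genes r with the macrophage sum, group means removed, ran from -0.834 (*Scarb1*) to 0.701 (*Pltp*), with -0.557 for *Abcg5* and -0.418 for *Abcg8*. With the sum of 8 hepatocyte markers, mostly *Alb* and treated alike, r was 0.747 for *Abcg5*, 0.588 for *Abcg8*, 0.795 for *Scarb1*, 0.587 for *Nr1h3* and 0.521 for *Abca1*. It was negative for *Abcg1* (-0.743), *Mylip* (-0.592), *Pltp* (-0.537) and *Soat2* (-0.33), the last 2 of which were lower on CDA-HFD. In whole liver a change in the number of cells of a type and a change in RNA per cell cannot be told apart, and the part of macrophages and hepatocytes in these values was not tested.

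**Figure D4:**
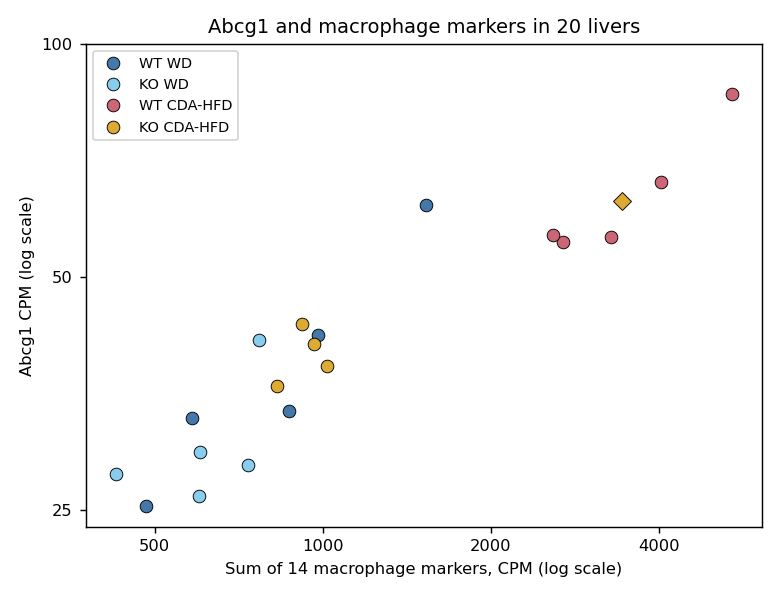
*Abcg1* (vertical axis, CPM, log) against the summed level of 14 macrophage markers (horizontal axis, CPM, log) in each of 20 livers, with the diamond for KO liver 5 on CDA-HFD. The 5 WT livers on CDA-HFD and KO liver 5 lie at marker sums from 2587 to 5410, and the other 14 livers at or below 1533.

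*Soat2* (ENSMUSG00000023045.13; chromosome 15, 102150526 to 102163469, plus strand), the cholesterol esterifying enzyme of hepatocytes, was lower on CDA-HFD. WT livers on WD were at 53.2, 51.2, 43.2, 49.5 and 42.5 CPM and on CDA-HFD at 29.7, 32.3, 31.0, 30.5 and 28.1 CPM. KO livers were at 67.0, 56.2, 62.3, 48.6 and 46.7 CPM on WD and at 33.3, 38.5, 35.9, 29.0 and 36.9 CPM on CDA-HFD. The diets did not overlap in either. The log2 fold change was -0.67 in WT (SE 0.0821, edgeR adjusted p = 7.22e-05) and -0.70 in KO livers (SE 0.121, edgeR adjusted p = 0.00378), and both lost their call with scaling by library size alone (-0.25 and -0.45). KO minus WT was 0.23 on WD (SE 0.110, edgeR adjusted p = 0.484), the lowest adjusted p of the list there, and 0.19 on CDA-HFD (SE 0.0895, edgeR adjusted p = 0.148). *Soat1*, the isoenzyme that macrophages use, went the other way, from 19.5 ± 6.51 CPM in WT livers on WD to 81.2 ± 23.5 CPM on CDA-HFD (log2 fold change 2.05, edgeR adjusted p = 5.52e-05). It was higher on CDA-HFD in KO livers too (1.15, edgeR adjusted p = 0.0411, and 0.62 without KO liver 5, edgeR adjusted p = 0.00929), and lower in KO than in WT livers on CDA-HFD at 32.1 ± 21.7 CPM (-1.34, edgeR adjusted p = 0.0313, or 0.056 with scaling by library size alone, and -1.86 without KO liver 5).

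*Pltp* (ENSMUSG00000017754.13; chromosome 2, 164839518 to 164857711, minus strand), which transfers phospholipids between lipoproteins, was lower on CDA-HFD as well. WT livers on WD were at 122, 92.3, 69.8, 68.5 and 71.0 CPM and on CDA-HFD at 58.8, 43.4, 46.6, 37.7 and 32.7 CPM. KO livers were at 101, 75.3, 91.4, 52.7 and 93.9 CPM on WD and at 36.9, 38.9, 33.6, 31.0 and 41.5 CPM on CDA-HFD, and the diets did not overlap in either kind of liver. The log2 fold change was -0.96 in WT (SE 0.188, edgeR adjusted p = 0.00132) and -1.19 in KO livers (SE 0.163, edgeR adjusted p = 0.000976), and in WT livers the call was lost with scaling by library size alone (-0.54, edgeR adjusted p = 0.0567). KO minus WT was -0.03 on WD (SE 0.195, edgeR adjusted p = 0.971) and -0.27 on CDA-HFD (SE 0.147, edgeR adjusted p = 0.21). Of its exonic bases 19.3% are shared with *Ctsa* on the opposite strand, and *Ctsa* itself had a log2 fold change with diet of 0.27 in WT (edgeR adjusted p = 0.102) and 0.11 in KO livers (edgeR adjusted p = 0.575).

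*Mylip* (ENSMUSG00000038175.10; chromosome 13, 45389742 to 45412022, plus strand) and *Scarb1* (ENSMUSG00000037936.15; chromosome 5, 125277087 to 125341094, minus strand) passed in none of the comparisons with TMM scaling of all 5 livers per group. On WD *Mylip* ranged from 23.1 to 31.4 CPM in WT livers and from 20.1 to 32.1 CPM in KO livers. On CDA-HFD the ranges were 22.7 to 31.6 and 24.9 to 35.2 CPM. All 4 ranges overlapped. Its log2 fold change with diet was -0.02 in WT livers (SE 0.116, edgeR adjusted p = 0.926) and turned to 0.41 with scaling by library size alone (edgeR adjusted p = 0.0442). Under that scaling *Scarb1* passed as higher on CDA-HFD in WT (0.29, edgeR adjusted p = 0.00655) and in KO livers (0.32, edgeR adjusted p = 0.0343). On WD *Scarb1* ranged from 176 to 219 CPM in WT livers and from 182 to 237 CPM in KO livers. On CDA-HFD the ranges were 156 to 208 and 167 to 239 CPM. KO liver 5 was the lowest of the last group, and KO minus WT on CDA-HFD was 0.24 with it (SE 0.126, edgeR adjusted p = 0.19) and 0.32 without it (SE 0.110, edgeR adjusted p = 0.0374).

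The second question was how the list differed between KO and WT livers on each diet. On WD none of the 9 genes passed (edgeR adjusted p 0.484 to 0.971), none had an unadjusted p under 0.05, DESeq2 passed none of the 9, and no pair of groups was free of overlap. Over all genes the background on WD was 0.0757% passing and 2.22% without overlap. On CDA-HFD 2 of the 9, *Abcg5* and *Abcg8*, were higher in KO livers and none was lower, where 15.5% of all 17204 genes passed, 8.19% higher and 7.29% lower. The groups did not overlap for 1 of the 9, *Abcg8*, against 9.57% of all genes. The median log2 fold change was 0.19, beside 0.00499 for all genes. Scaling by library size alone kept both calls, put the median of all genes at -0.187 and turned the share of higher calls from 52.9% to 30.3%. The number of genes that passed was then 1709 in place of 2664. Without KO liver 5 *Abcg5*, *Abcg8*, *Nr1h3* and *Scarb1* were higher and *Abcg1* was lower, 4 and 1 of 9, where 19.6% and 21.8% of 17411 genes were. DESeq2 on all 10 livers also passed *Abcg1* as lower. The KO livers on CDA-HFD also had more hepatocyte marker RNA in 4 of 5 livers, with a sum of 8 markers from 65640 to 94230 CPM and 31410 CPM in KO liver 5, against 28800 to 64330 CPM in WT livers. Of the 8 markers 1 passed as higher in KO livers, with a median log2 fold change of 0.70 over the 8. Without KO liver 5, 5 passed as higher, with a median of 0.89. The part of hepatocyte content in the members' values was not tested here either.

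The difference of the KO effect between the diets was tested by an interaction term over all 20 livers. None of the 9 genes passed, where 0.556% of 17804 genes did. The KO effect on *Abcg8* was higher on CDA-HFD than on WD by 1.34 on the log2 scale (SE 0.363, edgeR adjusted p = 0.103; DESeq2 adjusted p = 0.0232), and that on *Abcg5* by 1.18 (SE 0.361, edgeR adjusted p = 0.14). These 2 genes had an unadjusted p under 0.05 and the other 7 did not. Without KO liver 5 on CDA-HFD 3 of the 9 passed, *Abcg8* (1.38, edgeR adjusted p = 0.024), *Abcg5* (1.26, edgeR adjusted p = 0.0311) and *Nr1h3* (0.47, edgeR adjusted p = 0.0297).

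Other LXR targets were followed as a list of 16, of which 15 were tested. On CDA-HFD 7 were lower and 3 higher in WT livers, where 25.2% and 25.9% of all genes were. In KO livers 6 were lower and none higher, where 7.85% and 9.19% of all genes were. With scaling by library size alone the counts of the list were 7 and 5 in WT livers and 6 and 3 in KO livers. Under that scaling 10690 of 16726 genes passed in WT livers, 85.3% of them higher, and 3924 of 16387 in KO livers, 85.9% of them higher. Without KO liver 5 and with TMM scaling the counts of the list were 7 and 1 in KO livers, where 8.37% and 9.03% of all genes were. *Srebf1*, the regulator of fatty acid synthesis, fell from 774 ± 59.5 to 149.7 ± 34.8 CPM in WT livers (log2 fold change -2.38, edgeR adjusted p = 3.27e-06) and had -2.03 in KO livers (edgeR adjusted p = 0.000748). *Scd1*, the stearoyl-CoA desaturase, fell from 55090 ± 9580 to 209 ± 196 CPM in WT livers (-8.05, edgeR adjusted p = 1.54e-05) and had -11.03 in KO livers (edgeR adjusted p = 5.83e-05). *Mlxipl*, which encodes ChREBP, had -1.67 in WT livers (edgeR adjusted p = 2.93e-05), and *Lpcat3*, a phospholipid acyltransferase, -1.07 in KO livers (edgeR adjusted p = 0.000161). Between KO and WT on CDA-HFD 1 of the 15 rose and 3 fell, where 8.19% and 7.29% of all genes did. Without KO liver 5 the counts of the list were 5 and 5, where 19.6% of all genes were higher and 21.8% lower. *Mlxipl* rose (1.08, edgeR adjusted p = 0.0132), and *Lpl*, the lipoprotein lipase that macrophages also express, fell from 339 ± 63.5 to 69.0 ± 62.9 CPM (-2.30, edgeR adjusted p = 0.0142, and -3.05 without KO liver 5). *Smpdl3a*, a phosphodiesterase known as an LXR target in macrophages, fell too (-0.60, edgeR adjusted p = 0.00733). On WD none of the 15 passed.

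A list of 19 SREBP2 targets, the opposite arm of sterol control, was counted too. On CDA-HFD 12 were higher and 3 lower in WT livers, where 25.9% and 25.2% of all genes were. In KO livers 11 were higher and 1 lower, where 9.19% and 7.85% of all genes were. *Idi1*, which makes isoprenoid units, rose from 3.49 ± 1.08 to 16.7 ± 5.15 CPM in WT livers (log2 fold change 2.25, edgeR adjusted p = 4.57e-05), and *Sqle*, squalene epoxidase, from 4.32 ± 1.08 to 90.8 ± 22.8 CPM in KO livers (4.39, edgeR adjusted p = 1.82e-06). *Cyp51*, the lanosterol demethylase, had 1.77 in WT livers (edgeR adjusted p = 1.98e-05). With scaling by library size alone 14 were higher and 2 lower in WT livers. Under that scaling 10690 of 16726 genes passed there, 85.3% of them higher. None of the 19 passed between KO and WT on either diet, and 1 was higher on CDA-HFD without KO liver 5, where 19.6% of all genes were.

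Likeness across the 20 livers was described by Pearson's r of log2 CPM with each of 11840 genes, which share libraries, depth and the diet difference. *Abcg5* had *Abcg8*, *Mdh1* (r = 0.970) and *Pde3b* (r = 0.969) nearest. *Abcg8* had *Abcg5*, *Hsd17b10* (r = 0.964) and *Gm49668* (r = 0.957). *Abca1* was nearest to *4931406C07Rik* (r = 0.962), *Abcg5* (r = 0.957) and *Ngly1* (r = 0.955). *Nr1h3* was nearest to *Arhgef15* (r = 0.934), *Ushbp1* (r = 0.930) and *Tysnd1* (r = 0.916). *Soat2* had *Hcn3* (r = 0.938), *Pklr* (r = 0.936) and *Elmo3* (r = 0.927) nearest, and *Pltp* had *Pnpla3* (r = 0.916), *Dhrs7b* (r = 0.912) and *Stom* (r = 0.909). *Scarb1* was nearest to *Fam169b* (r = 0.913), *Mrpl15* (r = 0.910) and *Agxt* (r = 0.892). *Mylip* had the lowest nearest values, *Mras* (r = 0.762), *Pcnt* (r = 0.741) and *Zdhhc14* (r = 0.739).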

How the data were processed

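RNA was sequenced from 20 mouse livers, 5 for each vector on each diet. The authors counted reads per gene and deposited raw counts, which are whole numbers without normalization. The aligner, the counting program and its use of strand are not given in the sources used here, and the labels and the study's methods name different library kits. The submitters' processing notes name the build mm10, which is GRCm38. The 5 tallies of reads not assigned to a gene stayed out of every fit, and between 20.8% and 28.8% of tallied reads overlapped no counted feature. Reads aligned to more than 1 place, 18.0% to 28.7%, were not counted on genes. Groups were taken from the labels. Nothing in the labels pairs livers by number, and livers of the same number had residual correlations from -0.268 to 0.284 on WD and from -0.367 to 0.347 on CDA-HFD. Over the 40 pairs of livers within a group, chi-square per degree of freedom of the counts ran from 6.95 to 124, so none was treated as a copy of another.

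The tests were run with edgeR 4.0.16 under R 4.3.3 (filterByExpr, TMM, quasi-likelihood F test, Benjamini-Hochberg adjustment over all genes tested, threshold 0.05), with DESeq2 1.42.0 as an alternative, and the plots were drawn with matplotlib 3.10.9 in Python 3.11.15. Each comparison was fitted on its 10 livers, and the interaction of diet and KO on all 20. The edgeR test was checked on simulated counts, with 200 genes changed by 1 on the log2 scale. It recovered 54.5% of them for KO on CDA-HFD, 70.5% for diet in WT livers and 41.5% for the interaction. Of its calls 5.22%, 7.24% and 4.6% were false, so changes of that size can be missed. An exact permutation test (two-sided) was added for single genes, with 0.00794 as the smallest p that 5 against 5 can give. For correlations, CPM was put on the log2 scale (prior count 2), and genes averaging under 2 on that scale were not searched. Positions come from GENCODE vM21 and upstream sequences from RefSeq (GRCm38.p6), both of the build that the submitters name.

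The members and lists were chosen with earlier results of these data known. All 9 members were named in every comparison, and from each of the 8 pathway lists up to 3 genes with the smallest adjusted p among those that passed, and for each member the 3 genes with the most similar log2 CPM. Some genes that this rule names are not reported here. Alternative settings were scaling by RLE or by library size alone, the use of DESeq2, dropping the filter or asking for 10 counts in every library, fitting all 20 livers together, a replicate block, and leaving out each liver. List counts with other scalings and without KO liver 5 on CDA-HFD were added after the data were seen. The numbers of the livers come from the labels, and p-values set differences between groups against the spread between these livers.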

Additional observations from a re-analysis of the deposited data

Results flagged for a closer look

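Of 36 sets of 5 livers (9 genes in 4 groups), 3 held 1 liver that stood apart from the other 4 by Dixon's ratio, the gap to the nearest liver divided by the whole range, and chance gives about 1.8 of 36. *Abca1* in WT livers on WD had a ratio of 0.860, with liver 3 at 870.9 CPM and the other 4 from 733.5 to 752.7 CPM. *Abcg1* in KO livers on WD had a ratio of 0.762, with liver 1 at 41.5 CPM and the others from 26.1 to 29.7 CPM. That liver also had the highest macrophage marker sum of its group, 769 CPM against 427 to 734 CPM. *Abcg1* in KO livers on CDA-HFD had a ratio of 0.726, with liver 5 at 62.8 CPM and the others from 36.2 to 43.4 CPM, and its macrophage marker sum was 3435 CPM against 828 to 1019 CPM. The part of macrophages in these values was not tested.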

How the results depend on the processing

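Of 846 values of single members under the alternatives, 789 kept their direction and their side of the threshold, 16 lost the call, 17 gained one and 24 changed sign, and of those 24 only *Nr1h3* with diet in WT livers had passed. The cause of these changes was not tested. With scaling by library size only, log2 fold changes turned to -0.026 for *Abca1* and -0.0089 for *Mylip* (KO on CDA-HFD), to 0.021 for *Nr1h3*, 0.41 for *Mylip* and 0.29 for *Scarb1* (diet in WT livers), to 0.19 for *Nr1h3* (diet in KO livers) and to -0.013 for *Mylip* (interaction). With at least 10 counts in every library *Mylip* turned to 0.027 (diet in WT livers). With library size only 1709 genes passed for KO on CDA-HFD in place of 2664, and 3 members were higher and 3 lower with diet in WT livers, and 2 higher and 3 lower in KO livers. Over all genes 10690 then passed with diet in WT livers, 85.3% of them higher, and 3924 in KO livers, 85.9% of them higher. DESeq2 passed 152 genes for KO on WD in place of 12 and 4037 on CDA-HFD. It also passed *Abcg1* as the 1 member lower in KO livers on CDA-HFD, as did at least 10 counts, 1 member higher with diet in KO livers, as did no filter, and 1 member, *Abcg8*, in the interaction. With no filter 38 genes passed for KO on WD. All 20 livers in one fit passed 26 genes for KO on WD, 4170 for KO on CDA-HFD and 4476 for diet in KO livers in place of 2792.

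The replicate number was not taken to pair the livers. With a replicate block 2 genes passed for KO on WD, and *Abcg8* with diet in KO livers lost its call (-0.83, edgeR adjusted p = 0.0594), the 1 call of a member that the block changed.

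Leaving out 1 liver gave 1 to 33 genes for KO on WD (lowest without WT liver 5, highest without WT liver 3), 709 to 7201 for KO on CDA-HFD (without KO liver 1 and without KO liver 5), 7549 to 8723 for diet in WT livers and 1568 to 2881 in KO livers (lowest without KO liver 2 on WD). Members passing ranged from 1 to 4 higher and 0 to 1 lower for KO on CDA-HFD, 0 to 1 higher and 4 to 5 lower for diet in KO livers, and 0 to 3 in the interaction. They stayed at 0 for KO on WD and at 1 higher and 6 lower for diet in WT livers. Log2 fold changes that crossed 0, none of which had passed, ranged for KO on WD from -0.0033 to 0.0898 (*Nr1h3*), -0.038 to 0.11 (*Mylip*), -0.11 to 0.13 (*Pltp*) and -0.041 to 0.075 (*Scarb1*), for diet from -0.0805 to 0.049 (*Mylip* in WT livers) and -0.0997 to 0.074 (*Nr1h3* in KO livers), and for the interaction from -0.097 to 0.033 (*Soat2*).

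The lowest read count of a member in any liver was 263 (*Mylip*), whereas *Ch25h* had 1 to 27 reads per liver, so counting error bears on it more.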

Other observations

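Neighbouring routes of cholesterol were counted as lists in the same way. Of 14 genes of sterol uptake and trafficking tested, 6 were lower and 4 higher on CDA-HFD in WT livers, where 25.2% and 25.9% of all genes were. With scaling by library size alone 4 were lower and 6 higher. Under that scaling 10690 of 16726 genes passed, 85.3% of them higher. *Vldlr*, the VLDL receptor, fell in WT (log2 fold change -1.72, edgeR adjusted p = 3.2e-05) and in KO livers (-2.56, edgeR adjusted p = 0.00129), and so did *Scp2*, a sterol carrier of peroxisomes (-1.50, edgeR adjusted p = 3.27e-05, and -0.90, edgeR adjusted p = 0.00828). Of 11 HDL genes 6 were lower and 1 higher in WT livers, where 25.2% and 25.9% of all genes were. With scaling by library size alone, and 10690 of 16726 genes passing as above, 3 were lower and 1 higher. *Apoa2*, an HDL apolipoprotein, was among them at -1.34 (edgeR adjusted p = 0.000248). In KO against WT livers on CDA-HFD 6 of the 11 were higher without KO liver 5 (19.6% of all genes), and 2 with it (8.19% of all genes). They were *Lipc*, the hepatic lipase (0.75, edgeR adjusted p = 0.0416), and *Lcat*, which esterifies cholesterol in plasma (0.84, edgeR adjusted p = 0.0449, and 0.0524 with scaling by library size alone). Of 6 canalicular genes *Abcb11*, the bile salt export pump, was the 1 that passed between KO and WT on CDA-HFD (0.61, edgeR adjusted p = 0.0218), where 15.5% of all genes did. Its groups did not overlap, as for 9.57% of all genes. Without KO liver 5, 2 of the 6 were higher and 1 lower, where 19.6% and 21.8% of all genes were. *Lipe*, which encodes hormone-sensitive lipase, was the 1 gene of the pathway lists whose KO effect differed between the diets (0.99, SE 0.182, edgeR adjusted p = 0.0172). Over all genes 0.556% passed that test.

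Markers of other cell types moved with the diet in WT livers. On CDA-HFD 11 of 12 stellate, 6 of 6 cholangiocyte, 6 of 9 lymphocyte and 4 of 5 neutrophil markers tested were higher, where 25.9% of all genes were. Of 6 Kupffer cell markers 4 were lower, and of 10 endothelial markers 7 were lower and 1 higher, where 25.2% of all genes were lower. With scaling by library size alone these counts became 1 lower for Kupffer cells and 4 lower and 2 higher for endothelial cells. Under that scaling 10690 of 16726 genes passed, 85.3% of them higher. Between KO and WT livers on CDA-HFD 2 of 12 stellate and 5 of 5 neutrophil markers were lower and 1 of 6 Kupffer cell markers was higher. Of all genes 7.29% were lower and 8.19% higher there. Without KO liver 5 there, 10 stellate, 5 cholangiocyte and 5 neutrophil markers were lower and 7 endothelial and 3 Kupffer cell markers were higher. Of all genes 21.8% were then lower and 19.6% higher. The part of these cell types in the values of the 9 genes was not tested.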
